A study of Mus musculus with 4 samples.

Results

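The 8 genes described here encode secreted factors and receptors that sustain B cells or antibody-secreting plasma cells, or hold cells in bone marrow. They were found by symbol among the 56793 gene rows of the deposited expression table. They are the ligands Tnfsf13 (APRIL) and Tnfsf13b (BAFF), their receptors Tnfrsf17 (BCMA), Tnfrsf13b (TACI) and Tnfrsf13c (BAFF-R), the cytokine Il6, the chemokine Cxcl12 and its receptor Cxcr4. Each symbol matched 1 row. RNA was compared between 2 libraries of megakaryocytes, the platelet-forming cells, sorted from the bone marrow of old mice and 2 from young mice. All 4 samples carry the genotype label Blc6 and no treatment. The labels give neither the ages, nor the sorting gate, nor the number of animals behind a library. Nothing says that replicates came from separate animals, so the p-values measure only the spread between these libraries, which may be technical. Levels are in TPM, a transcript's share of all transcripts scaled to 1000000, which are corrected for transcript length and can be compared between genes. TPM keeps no sequencing depth, so no counting error is given for a value. A mean normalized count, pooled over the libraries, is at hand for 2 of the 8 genes only.

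APRIL and BAFF are trimeric ligands of the tumour necrosis factor superfamily. BAFF-R binds BAFF alone and sustains mature B cells, TACI binds both ligands, and BCMA, which binds APRIL with high affinity, appears as B cells become plasma cells and is needed for the survival of long-lived plasma cells in marrow. Interleukin-6 also supports plasma cells, through Il6ra and the shared subunit Il6st. Cxcl12, made chiefly by reticular stromal cells, holds Cxcr4-bearing plasma cells, neutrophils and stem cells in the marrow. Megakaryocytes, eosinophils and other myeloid cells have been described as sources of APRIL and interleukin-6 for plasma cells.

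The libraries held RNA of several cell types, and the share of each type in them was not measured. The 16 neutrophil markers summed to between 125400 and 125900 TPM in the old libraries and between 141100 and 147100 TPM in the young ones, against 1834 to 2313 TPM in old and 2540 to 3150 TPM in young for 20 megakaryocyte and platelet markers. Immunoglobulin genes took 13.3% and 13.1% of all TPM in old libraries, against 1.03% and 0.896% in the young ones. All TPM values of a library add up to the same total, so a larger immunoglobulin share lowers the rest in old, and tested genes had a median log2 change of -0.10. The median was -0.05 after median-ratio scaling between libraries and 0.07 with immunoglobulin genes removed and the rest rescaled. In bulk samples such as these, fewer cells of a type and less RNA per cell cannot be told apart.

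Tnfrsf17 and Il6 rose in old samples, Cxcr4 fell by a small margin, and the other 5 genes did not pass the test. The test was limma on log2(TPM + 1), with p-values adjusted over the 16073 genes that averaged 1 TPM or more and a threshold of 0.05. All 8 genes passed the minimum of 1 TPM. The 3 calls make up 37.5% of the 8 genes, and 19.9% of all tested genes were called, 5.2% higher and 14.7% lower in old. After median-ratio scaling 11.5% of genes were called, 5.93% higher and 5.6% lower, and with immunoglobulin genes removed 11.2%, 8.02% higher and 3.15% lower, while Tnfrsf17 and Il6 kept their calls under both and Cxcr4 lost its own. The old and young values did not overlap for 3 of the 8 genes, and for 67.9% of all tested genes.

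**Figure D1:**
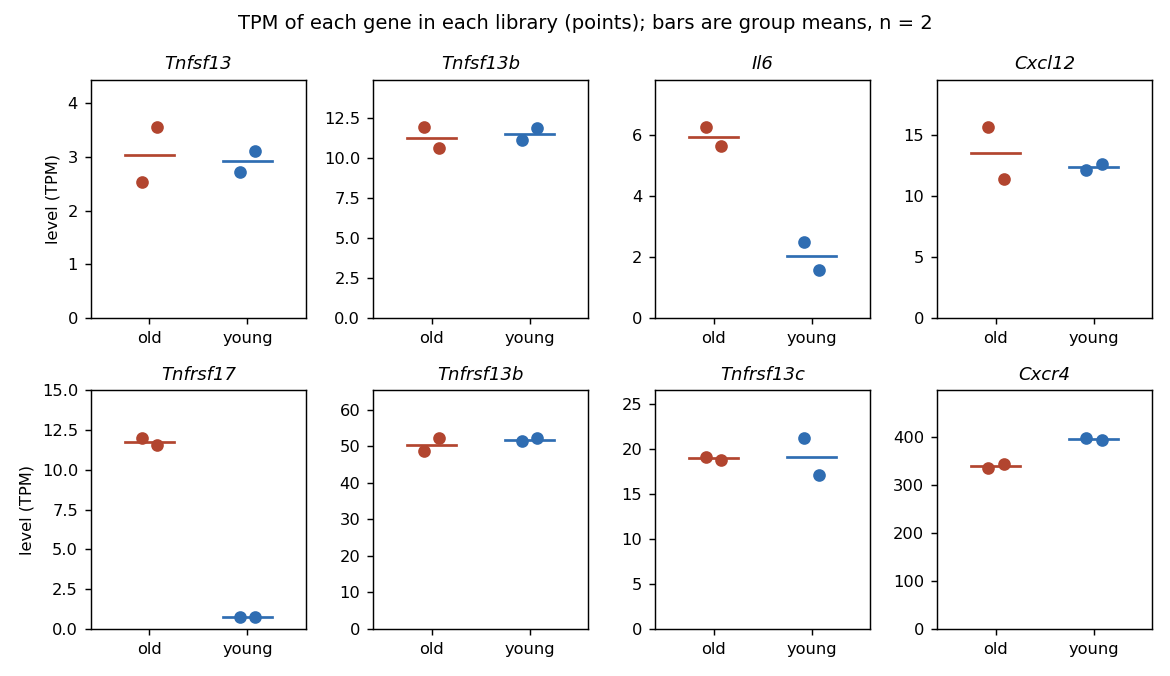
Level in TPM (y axis, from 0) of each gene in the 2 old libraries (red, left) and the 2 young libraries (blue, right); points are libraries and bars are group means. Tnfrsf17 and Il6 were higher in both old libraries, Cxcr4 was lower in both, and the groups overlapped for the other 5 genes.

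Both ligands of the tumour necrosis factor family were detected in all 4 libraries, and neither passed the test. Tnfsf13b, encoding BAFF, was at 11.9 and 10.6 TPM in the old libraries and at 11.1 and 11.9 TPM in the young libraries. The groups overlapped, and the log2 change was -0.03 (SE 0.10, 95% interval -0.29 to 0.23, adjusted p = 0.851), a direction that turned to 0.03 after median-ratio scaling and to 0.15 once immunoglobulin genes were removed. Tnfsf13, encoding APRIL, was at 2.53 and 3.55 TPM in the old libraries and at 2.72 and 3.11 TPM in the young libraries. The old libraries lay on either side of the young ones, with a log2 change of 0.03 (SE 0.18, 95% interval -0.44 to 0.51, adjusted p = 0.908), which was -0.15 without old replicate 2 and -0.036 without young replicate 1. APRIL was the rarer ligand in every library, and the ratio of Tnfsf13 to Tnfsf13b was 0.213 and 0.334 in old libraries, against 0.245 and 0.262 in young libraries. Of 15 markers of eosinophils, basophils and mast cells, which include described sources of APRIL, 14 were tested, of which 2 rose and 4 fell, against 2 rose and 0 fell with median ratios and 5 rose and 0 fell without immunoglobulin genes. They summed to 4503 and 5786 TPM in old libraries, against 7156 and 7169 TPM in young libraries.

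The value of Tnfsf13 is less certain than the others because other genes share its sequence. In the GENCODE M21 annotation its exons overlap those of Tnfsfm13, a read-through gene of Tnfsf12 and Tnfsf13 on the same strand, and those of the antisense gene Tnfsf13os. The library kit marks strand, but no source used here says whether counting did. Tnfsfm13 was at 0.500 and 0.588 TPM in old libraries, against 0.507 and 0.201 TPM in young libraries. Tnfsf13os stood higher than Tnfsf13 itself, at 28.8 and 30.1 TPM in old libraries, against 25.2 and 21.9 TPM in young libraries (log2 change 0.31, SE 0.09, adjusted p = 0.0712). The upstream neighbour Tnfsf12, which encodes the ligand TWEAK, fell to 5.02 and 4.63 TPM in old libraries, against 9.35 and 8.70 TPM in young libraries. Its log2 change was -0.78 (SE 0.11, adjusted p = 0.0203), and it was also called under both other scalings.

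Tnfsf12 was the only called gene among 15 other ligands of the superfamily. Of the 7 tested, 1 fell and 6 were not called, with a median log2 change of -0.18, and the other 8 did not reach a mean of 1 TPM. Ltb, encoding lymphotoxin beta, was the most abundant of them, at 73.2 and 82.0 TPM in old libraries and 93.5 and 82.4 TPM in young libraries (adjusted p = 0.227). Tnf was at 19.8 and 20.7 TPM in old libraries and 18.7 and 16.8 TPM in young libraries (adjusted p = 0.191). The T cell ligand Cd70 was listed at 0 in all 4 libraries.

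Of 12 genes that process the ligands or shed the receptors, 1 rose, 1 fell and 10 were not called, against 2 rose and 0 fell without immunoglobulin genes. Furin, the protease that releases APRIL and BAFF from their precursors, was at 70.2 and 65.7 TPM in old libraries and 62.7 and 63.6 TPM in young libraries (adjusted p = 0.292). That result is for TPM as deposited only, and the gene that rose beside Sdc1 without immunoglobulin genes is not named here. Adam10, a protease that sheds TACI, fell by 0.31 on the log2 scale (SE 0.06, adjusted p = 0.0361), a call lost under both other scalings (adjusted p = 0.0601 with median ratios and 0.261 with immunoglobulin genes removed). The gene of the list that rose as deposited was Sdc1, encoding syndecan-1, a heparan sulphate carrier of plasma cells that binds APRIL. Sdc1 was at 34.3 and 34.2 TPM in old libraries, against 7.17 and 8.11 TPM in young libraries (log2 change 2.03, SE 0.09, adjusted p = 0.00183).

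Tnfrsf17 had the largest change of the 8 genes. It was at 12 and 11.6 TPM in old libraries, against 0.748 and 0.772 TPM in the young libraries. Both old values lay far above both young ones, and the mean of 11.8 ± 0.314 TPM in old was 15.5 times the mean of 0.760 ± 0.0165 TPM in young (SD, n = 2 each). Both young values were under 1 TPM, and an SD of 2 libraries does not measure counting error. The authors' deposited table gives Tnfrsf17 a mean normalized count of 43.3 and an SE of 0.65 for its log2 fold change of 3.77. On the log2(TPM + 1) scale, which understates the change of a gene this low in one group, the change was 2.86 (SE 0.13, 95% interval 2.53 to 3.19, adjusted p = 0.00177). It was place 98 among the 16073 tested genes by the size of its rise. The call held in all 12 alternatives, with log2 changes of 2.83 to 3.79 and adjusted p-values of 0.00140 to 0.0264.

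Markers of plasma cells moved with Tnfrsf17. The 18 plasma cell markers summed to 48590 and 49390 TPM in old libraries, against 3964 and 3647 TPM in young libraries. Most of each sum was Igkc, at 39430 and 39990 TPM in old libraries and 2526 and 2325 TPM in young libraries. Of the 18 markers 14 rose, 1 fell and 3 were not called, with a median log2 change of 1.79, and none was at 0 in all libraries. With median ratios 14 rose and 0 fell. Removing immunoglobulin genes took some of the markers out, and of the rest 9 rose and 0 fell, with a median of 0.87. The part of these markers in the rise of Tnfrsf17 was not tested. Derl3, a component of endoplasmic reticulum quality control, was at 48.9 and 47.4 TPM in old libraries, against 3.10 and 3.26 TPM in young libraries, a log2 change of 3.56. Jchain, which joins IgA and IgM multimers, was at 760 and 672 TPM in old libraries, against 120 and 90.3 TPM in young libraries, a log2 change of 2.76. Prdm1, encoding the plasma cell regulator Blimp-1, rose by 1.54. The marker that fell was Ly6c2, which monocytes also express, a call lost with median ratios (adjusted p = 0.130) and without immunoglobulin genes (adjusted p = 0.111). On the log2(TPM + 1) scale 6 of the 18 markers had a larger change than Tnfrsf17, and by the fold of mean TPM 4 did, all of them immunoglobulin genes.

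A ratio within a library is not altered by the fixed total, so Tnfrsf17 was set against plasma cell genes in each library. Tnfrsf17 over Jchain was 0.0158 and 0.0172 in old libraries, against 0.00621 and 0.00855 in young libraries. Tnfrsf17 over Sdc1 was 0.350 and 0.338 in old libraries, against 0.104 and 0.0951 in young libraries. Tnfrsf17 over Mzb1, an endoplasmic reticulum cochaperone of B and plasma cells, was 0.863 and 0.761 in old libraries, against 0.222 and 0.388 in young libraries. Tnfrsf17 was thus higher in old relative to each of these 3 genes, by 1.18, 1.79 and 1.47 on the log2 scale, with no overlap between groups. The exact permutation p was 0.333 for each, the smallest that 2 libraries against 2 can give, and the 3 ratios share their numerator. That numerator was under 1 TPM in both young libraries. All 3 markers had a smaller fold than Tnfrsf17. Tnfrsf17 over Derl3, a pair chosen after its values were seen, was nearly level, at 0.245 and 0.244 in old libraries, against 0.241 and 0.236 in young libraries. Over all 18 plasma cell markers the ratio was higher in both old libraries for 14, overlapped for the immunoglobulin genes Igkc and Ighg1, and was lower in both for Ighg2b and Ighg2c.

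**Figure D2:**
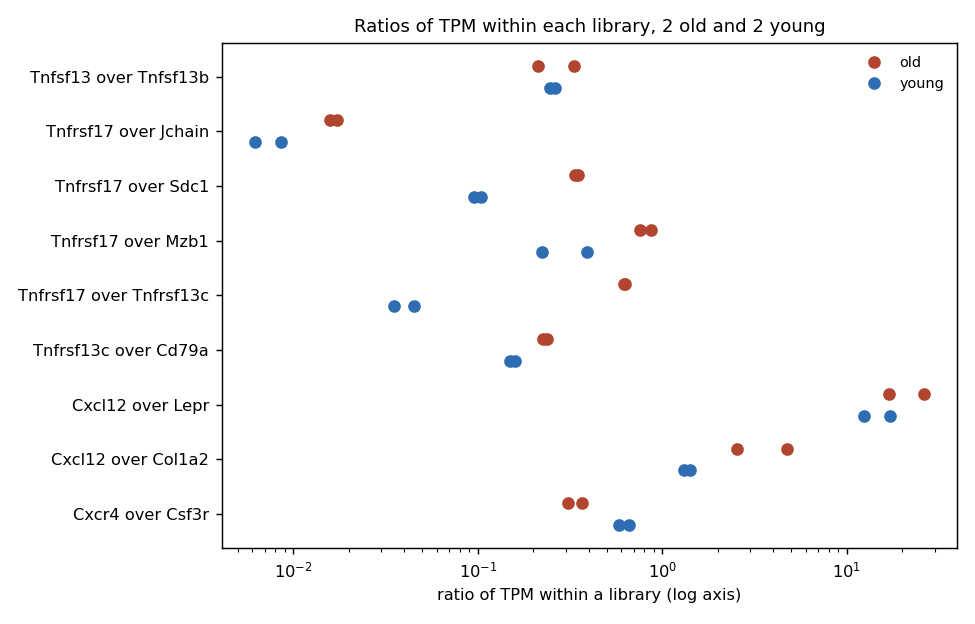
Ratios of TPM within each library on a log axis, for 9 gene pairs (rows), with old libraries in red and young libraries in blue. Tnfrsf17 stood higher in both old libraries relative to Jchain, Sdc1, Mzb1 and Tnfrsf13c, while the groups overlapped for Tnfsf13 over Tnfsf13b and for Cxcl12 over Lepr.

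Neither of the other receptors passed the test. Tnfrsf13b, encoding TACI, was at 48.8 and 52.3 TPM in the old libraries and at 51.4 and 52.3 TPM in the young libraries. The groups overlapped, and the log2 change was -0.04 (SE 0.07, 95% interval -0.21 to 0.13, adjusted p = 0.711), a direction that turned to 0.02 after median-ratio scaling and to 0.15 once immunoglobulin genes were removed. Tnfrsf13c, encoding BAFF-R, was at 19.2 and 18.7 TPM in the old libraries and at 21.2 and 17.1 TPM in the young libraries. Here the young libraries lay on either side of the old ones, with a log2 change of -0.01 (SE 0.12, 95% interval -0.31 to 0.30, adjusted p = 0.975) that was 0.05 and 0.18 under the other scalings. Tnfrsf17 made up 15.0% and 14.0% of the summed TPM of the 3 receptors in old libraries, against 1.02% and 1.10% in young libraries. TACI was the main receptor transcript in every library, at 61.0% and 63.3% in old libraries and 70.1% and 74.5% in young libraries.

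Most B cell markers fell while these receptors of B cells were not called. Of 16 B cell markers 12 fell and 4 were not called, with a median log2 change of -0.70, and 9 fell with median ratios and 10 without immunoglobulin genes. Their summed level was 364 and 336 TPM in old libraries, against 609 and 554 TPM in young libraries. Cd79a, a subunit of the B cell receptor complex, was at 85.0 and 78.6 TPM in old libraries, against 133 and 114 TPM in young libraries. The precursor genes Vpreb1a, Igll1, Vpreb3 and Rag1 fell, with log2 changes between -1.94 and -1.44, and the precursor gene Dntt changed by -0.81. Among genes that mature B cells carry, Fcer2a changed by -0.87, and like Dntt it was called under all 3 scalings. Ms4a1 fell by 0.42 on that scale, a call lost with median ratios (adjusted p = 0.0811) and without immunoglobulin genes (adjusted p = 0.150). Cr2 and Cd22 were not called. Of the 16 markers 15 had a lower log2 change than Tnfrsf13c, and 15 a lower one than Tnfrsf13b. Tnfrsf13c over Cd79a was 0.226 and 0.239 in old libraries, against 0.159 and 0.149 in young libraries. BAFF-R was thus higher in old relative to this gene, by 0.59 on the log2 scale and with no overlap (exact permutation p = 0.333, the smallest possible). The ratio was higher in both old libraries for 15 of the 16 markers and overlapped for the other one. These ratios share a numerator that was not called, so their count restates that of the lower log2 changes.

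**Figure D3:**
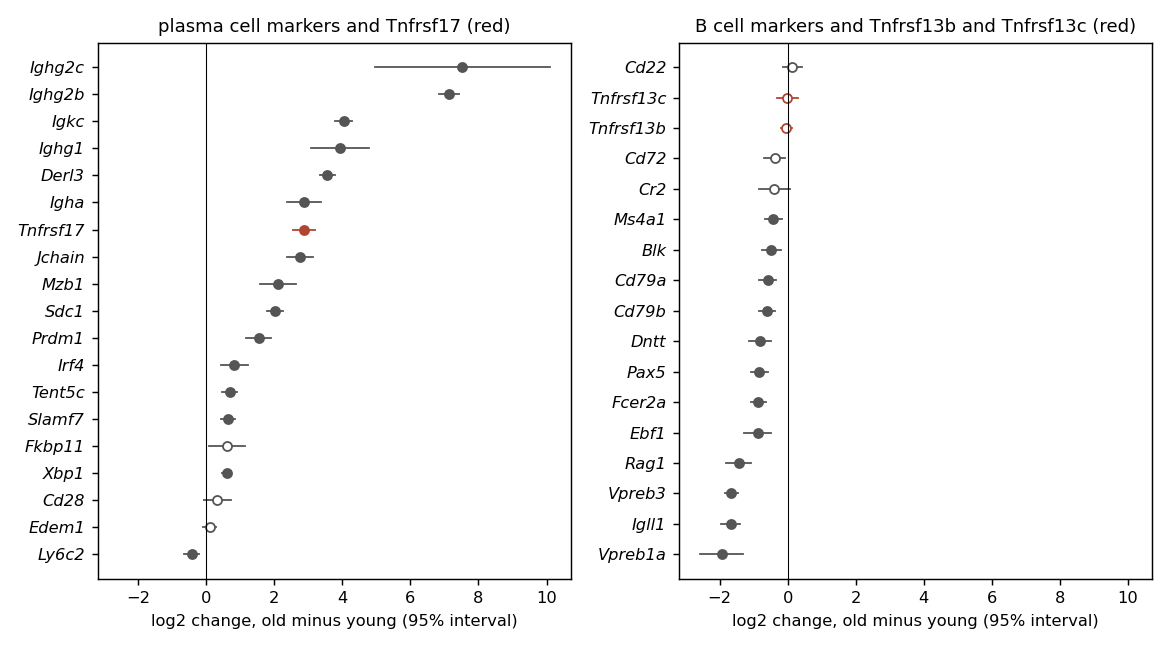
Log2 change, old minus young, with its 95% interval for 18 plasma cell markers with Tnfrsf17 (left) and 15 B cell markers with Tnfrsf13b and Tnfrsf13c (right), receptors in red and filled points past an adjusted p of 0.05. Tnfrsf17, at 2.86, lay among the plasma cell markers, and both other receptors lay above 14 of the 15 B cell markers drawn.

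Of 17 genes of the TRAF and NF-kappaB signalling chain below these receptors, 1 rose and 16 were not called, with a median log2 change of 0.10, and 3 rose without immunoglobulin genes. Traf1, an adaptor that NF-kappaB itself induces, was at 6.05 and 5.06 TPM in old libraries, against 2.46 and 2.72 TPM in young libraries (log2 change 0.87, SE 0.15, adjusted p = 0.0250), and it was also called under both other scalings. Mcl1, the survival factor that BCMA sustains in plasma cells, was at 435 and 395 TPM in old libraries and 358 and 354 TPM in young libraries (adjusted p = 0.0817). Map3k14, the NF-kappaB-inducing kinase of the alternative pathway, was at 22.8 and 21.8 TPM in old libraries and 18.4 and 18.8 TPM in young libraries (adjusted p = 0.0758). The subunits Nfkb2 and Relb of that pathway were not called. For Mcl1, Map3k14 and these subunits the results are those of TPM as deposited only. The genes that rose beside Traf1 without immunoglobulin genes are not named here.

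Il6 was a low transcript that stood higher in both old libraries. It was at 6.25 and 5.64 TPM in old libraries, against 2.49 and 1.57 TPM in the young libraries. The groups did not overlap, and the mean of 5.95 ± 0.431 TPM in old was 2.93 times the mean of 2.03 ± 0.650 TPM in young (SD, n = 2 each). The log2 change was 1.21 (SE 0.19, 95% interval 0.72 to 1.71, adjusted p = 0.0237), and the call held under both other scalings. It was lost without old replicate 1 (adjusted p = 0.0683), without old replicate 2 (adjusted p = 0.0606) and without young replicate 2 (adjusted p = 0.0701), and also where genes of any level were tested or the variance model had no trend. Its log2 change stayed between 0.99 and 1.54 over the alternatives.

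Most of the interleukin-6 family was not called. Of 17 genes 15 were tested, of which 2 rose, 2 fell and 11 were not called, with a median log2 change of -0.04. Osm, encoding oncostatin M, a relative of interleukin-6, was at 214 and 190 TPM in old libraries, against 116 and 108 TPM in young libraries (log2 change 0.85, SE 0.08, adjusted p = 0.0111). Socs3, the feedback inhibitor that STAT3 induces, was at 60.4 and 58.1 TPM in old libraries, against 36.6 and 32.7 TPM in young libraries (log2 change 0.76, SE 0.08, adjusted p = 0.0124). Both were also called under the other scalings. Ptpn11, a phosphatase recruited to Il6st, fell by 0.37, and Il6ra, the receptor subunit that binds interleukin-6, fell by 0.28 on the log2 scale. These calls were lost with immunoglobulin genes removed (adjusted p = 0.109 for Ptpn11 and 0.360 for Il6ra), and that of Il6ra also under median-ratio scaling (adjusted p = 0.0729). Stat3 was at 91.5 and 83.1 TPM in old libraries and 83.4 and 86.4 TPM in young libraries (adjusted p = 0.714).

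The sequences before the start sites of the 2 genes that rose are shown so that their letters can be compared. They are the 250 bases upstream of the RefSeq start on build GRCm38.p6, both on the plus strand, at chr16:11313559-11313808 for Tnfrsf17 and chr5:30012864-30013113 for Il6. That build is not one the submitters' processing notes name. Capitals mark matches on either strand to 7 motifs.
Tnfrsf17: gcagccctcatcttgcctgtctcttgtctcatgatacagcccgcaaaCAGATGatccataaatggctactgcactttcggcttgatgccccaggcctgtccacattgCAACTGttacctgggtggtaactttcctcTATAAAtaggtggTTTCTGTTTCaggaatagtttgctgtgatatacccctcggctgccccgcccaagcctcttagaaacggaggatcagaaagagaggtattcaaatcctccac
Il6: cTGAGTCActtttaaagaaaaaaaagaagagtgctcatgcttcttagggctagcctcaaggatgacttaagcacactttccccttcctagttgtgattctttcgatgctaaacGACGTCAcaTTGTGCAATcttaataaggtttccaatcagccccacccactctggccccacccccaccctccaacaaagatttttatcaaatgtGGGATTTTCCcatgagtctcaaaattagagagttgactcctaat

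The Il6 window held an NF-kappaB motif, GGGATTTTCC with any base allowed in the fifth place, found in 0.356% of 32851 windows of the same length, and it began 44 bases before the start. It also held the AP-1 motif TGANTCA (6.75% of windows), the CRE motif TGACGTC (2.78%) and the C/EBP motif TTNNGCAAT (1.93%). The Tnfrsf17 window held none of these, and held the TATA box TATAAA (12.4%), the interferon-type motif, TTTCTGTTTC with any base allowed in the fifth and sixth places (2.98%), and 2 matches to the E-box CAGNTG (44.8%). No 2 of the marked matches overlap. All 8 genes had a window in the table, and Il6 was the only one with the NF-kappaB, CRE or C/EBP letters. The motifs are textbook ones and were chosen with these sequences in view, and a match is a description of letters only.

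Cxcl12 was at 15.6 and 11.4 TPM in the old libraries and at 12.1 and 12.6 TPM in the young libraries. The old libraries lay on either side of the young ones, and the log2 change was 0.10 (SE 0.16, 95% interval -0.30 to 0.51, adjusted p = 0.657). The direction rested on old replicate 1, since the change was -0.11 without it and 0.31 without old replicate 2. Markers of the stromal cells that make Cxcl12 were low. Lepr was at 0.918 and 0.435 TPM in old libraries and 0.707 and 1.02 TPM in young libraries, and Foxc1 did not exceed 0.191 TPM in any library. Of 17 stromal markers 11 were tested, of which 2 fell and 9 were not called (1 rose and 2 fell without immunoglobulin genes), with a summed level of 102 and 86.1 TPM in old libraries and 96.1 and 114 TPM in young libraries. Those that fell were the collagens Col1a1 and Col1a2, under all 3 scalings. Most of each stromal sum was Sparc alone, at 66.3 and 56.3 TPM in old libraries and 55.7 and 69.5 TPM in young libraries. None of 9 tested endothelial markers was called, and they summed with 2 untested ones to 109.9 and 99.2 TPM in old libraries and 108 and 110 TPM in young libraries. Cxcl12 over Col1a2 was 4.74 and 2.55 in old libraries, against 1.31 and 1.42 in young libraries (exact permutation p = 0.333, the smallest possible). Cxcl12 over Lepr was 17.0 and 26.2 in old libraries, against 17.1 and 12.3 in young libraries, which overlapped. Over the 11 tested stromal markers the ratio of Cxcl12 was higher in both old libraries for 5, lower in both for 3 and overlapping for 3.

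Cxcr4 was the most abundant of the 8 genes, at 334.5 and 343 TPM in old libraries, against 398 and 393.0 TPM in the young libraries. The groups did not overlap, and old stood at 0.857 of young, a log2 change of -0.22 (SE 0.05, 95% interval -0.36 to -0.08, adjusted p = 0.0473). A share of 32.2% of all tested genes had a lower log2 change than Cxcr4. The call was lost with median ratios (-0.16, adjusted p = 0.263) and without immunoglobulin genes (-0.03, adjusted p = 0.724). It was also lost without old replicate 1 (adjusted p = 0.0510), young replicate 1 (adjusted p = 0.349) or young replicate 2 (adjusted p = 0.303), and held in 3 of 12 alternatives. Neutrophils carry Cxcr4, and their markers had the largest sum of any list in every library. Of the 16 neutrophil markers 1 rose, 1 fell and 14 were not called, against 1 rose and 0 fell with median ratios and 5 rose and 0 fell without immunoglobulin genes. Their part in the fall of Cxcr4 was not tested. Set against Csf3r, the receptor for the growth factor of neutrophils and the marker that rose, Cxcr4 was 0.309 and 0.369 in old libraries, against 0.660 and 0.582 in young libraries, a log2 difference of -0.88 with no overlap (exact permutation p = 0.333, the smallest possible). Set against S100a9, a more abundant neutrophil gene chosen after its values were seen, Cxcr4 was 0.00654 and 0.00689 in old libraries and 0.00670 and 0.00706 in young libraries, a log2 difference of -0.036 with overlap. Over all 16 neutrophil markers the ratio of Cxcr4 was lower in both old libraries for 6, higher in both for 3 and overlapping for 7.

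**Figure D4:**
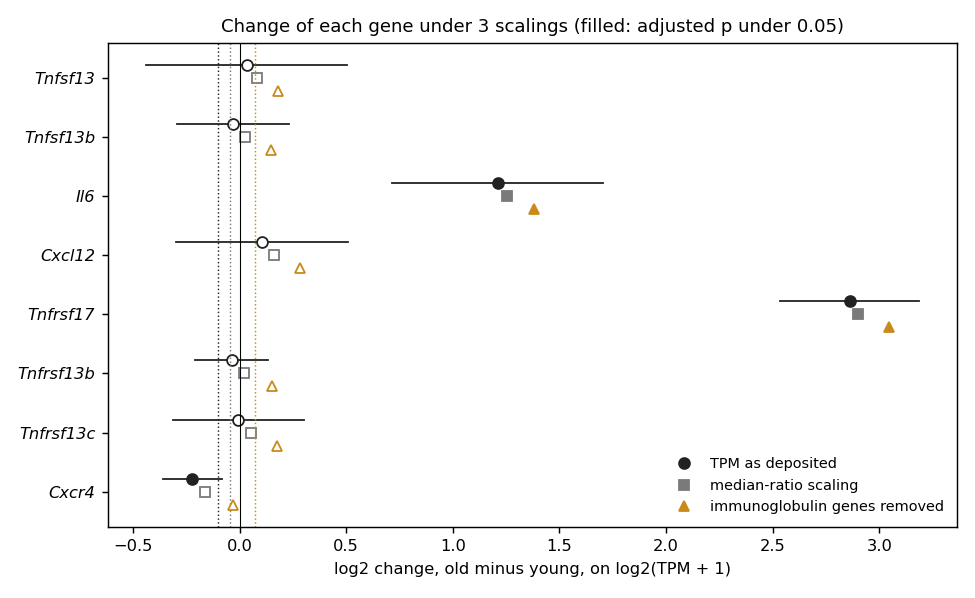
Log2 change of each gene, old minus young, as deposited (circles, with 95% intervals), after median-ratio scaling (squares) and with immunoglobulin genes removed (triangles); filled symbols pass an adjusted p of 0.05 and dotted lines are the medians of all tested genes. Tnfrsf17 and Il6 were called under all 3 scalings, and Cxcr4 was called as deposited only.

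Of 17 partners and signalling genes of the Cxcl12 axis 16 were tested, of which 2 rose, 4 fell and 10 were not called, with a median log2 change of -0.07. With median ratios 1 rose and 1 fell, and without immunoglobulin genes 4 rose and 1 fell. Rgs1, a regulator that dampens signalling through Cxcr4, was at 16.9 and 15.0 TPM in old libraries, against 5.56 and 5.75 TPM in young libraries (log2 change 1.35, SE 0.11, adjusted p = 0.00770). Dpp4, a peptidase that inactivates Cxcl12, was at 9.87 and 8.95 TPM in old libraries, against 16.1 and 15.7 TPM in young libraries (log2 change -0.70, SE 0.09, adjusted p = 0.0188). Both were called under all 3 scalings. The G protein subunit Gnb1 fell by 0.27, a call lost with median ratios (adjusted p = 0.163) and without immunoglobulin genes (adjusted p = 0.357). Ackr3, the decoy receptor that removes Cxcl12, stayed under the minimum, at 0.547 and 0.286 TPM in old libraries and 0.199 and 0.293 TPM in young libraries.

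Among 21 other adhesion molecules and cytokines of the plasma cell niche 17 were tested, of which 1 rose, 5 fell and 11 were not called, with a median log2 change of -0.04. With median ratios 0 rose and 2 fell, and without immunoglobulin genes 2 rose and 2 fell. Vcam1, which anchors plasma cells to stroma and is also made by marrow macrophages, was at 37.0 and 40.9 TPM in old libraries, against 74.7 and 82.9 TPM in young libraries (log2 change -1.0, SE 0.09, adjusted p = 0.00897). It was called under both other scalings as well. In the list of monocyte and macrophage markers 12 of 18 fell, or 6 under either of the other scalings. These counts include Vcam1 itself, which the list also holds. The summed level of that list was 1206 and 1277 TPM in old libraries, against 1699 and 1681 TPM in young libraries, and its part in the fall of Vcam1 was not tested. Itgb1, a chain of the Vcam1 receptor, fell by 0.33, and Lgals1, encoding galectin-1, fell by 0.79 on the log2 scale. Under median-ratio scaling both calls were lost (adjusted p = 0.0747 for Itgb1 and 0.0693 for Lgals1), and with immunoglobulin genes removed that of Itgb1 was (adjusted p = 0.153). The integrin chain Itga4 and the costimulator Cd28 were not called. Il5 and Il21 were listed at 0 in 3 of 4 libraries.

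**Figure D5:**
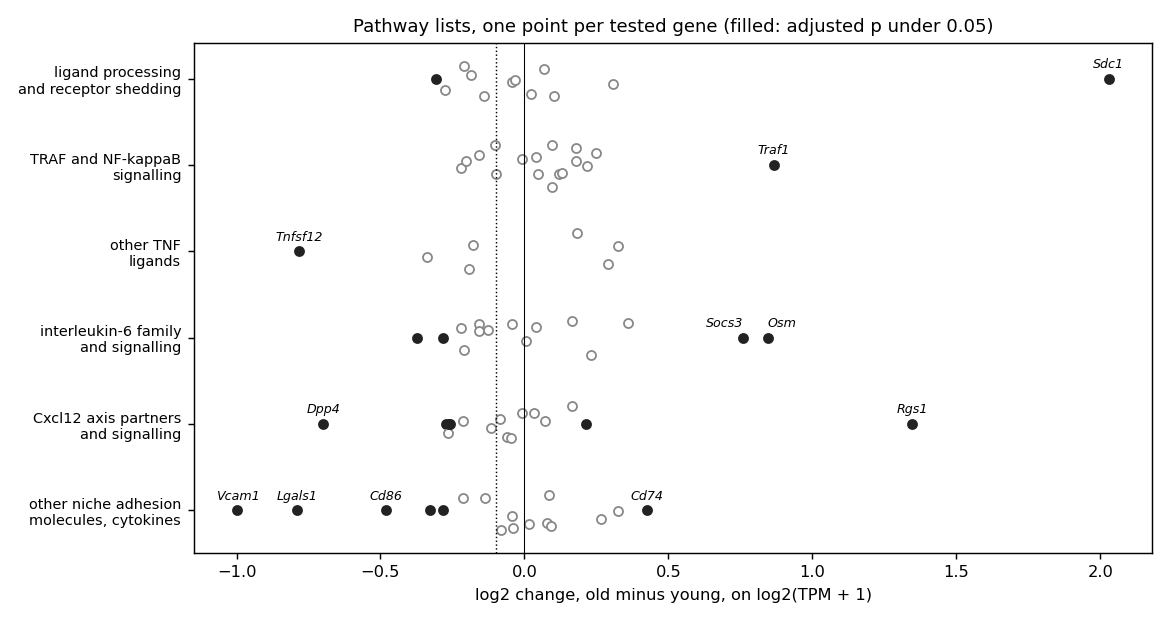
Log2 change, old minus young (x axis), of each tested gene in 6 lists around the 8 genes (rows, with vertical scatter for clarity); filled points pass an adjusted p of 0.05, named where the change is over 0.4, and the dotted line is the median of all tested genes, -0.10. Most genes of each list were not called.

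The order of the levels was the same in old and young for the first 4 genes and differed below them. In old samples it ran Cxcr4, Tnfrsf13b, Tnfrsf13c, Cxcl12, Tnfrsf17, Tnfsf13b, Il6 and Tnfsf13. Cxcl12 and Tnfrsf17 overlapped there, as did Tnfrsf17 and Tnfsf13b. In young samples it ran Cxcr4, Tnfrsf13b, Tnfrsf13c, Cxcl12, Tnfsf13b, Tnfsf13, Il6 and Tnfrsf17, and no neighbours overlapped. Tnfrsf17 was thus in place 5 in old and place 8 in young, and Il6 stood above Tnfsf13 in old and below it in young.

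Genes whose centred log2 values lay nearest to each member over the 4 libraries are given as a description. For Tnfrsf17 only 1 tested gene lay within a distance of 0.1, the microRNA gene Mir6942, at 6.41 and 5.99 TPM in old libraries and listed at 0 in both young libraries. The next was Chst1, a sulphotransferase, at a distance of 0.221. For Il6 the nearest was Ly6k, at 4.66 and 4.15 TPM in old libraries, against 1.65 and 1.02 TPM in young libraries, and 2 genes lay within 0.1. The profiles of Cxcr4 and Tnfsf13b were common ones, with 1250 and 1225 genes within that distance, and Gnai2, the G protein subunit through which Cxcr4 signals, was the second nearest to Cxcr4.

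In the authors' deposited table of 1255 changed genes, 2 of the 8 genes appear. The authors' deposited table gives Tnfrsf17 a log2 fold change of 3.77 (SE 0.65, adjusted p = 1.14e-07) and a mean normalized count signal of 43.3. For Il6 the authors' deposited table gives a log2 fold change of 0.78 (SE 0.57, adjusted p = 0.00847) and a mean of 90.1. Positive values there mean higher in old, as the signs match the TPM means for all 1255 genes. The p-value deposited for Il6 is smaller than its deposited fold change and SE would give, so these values may not come from the same estimate. That fold change is also below the log2 change of 1.21 found here on log2(TPM + 1), and mean TPM of Il6 in old was 2.93 times that in young. In the authors' deposited table of 211 enriched terms among genes higher in old, Il6 is listed under 110 terms and Tnfrsf17 under 4. For both, the term with the smallest p is B cell mediated immunity, with a log10 p of -24.7 in the authors' deposited table.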

How the data were processed

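Per the labels' protocols, poly(A) RNA of sorted megakaryocytes went into stranded libraries. DESeq2, STAR, TopHat and Trim Galore are the tools and GRCm39 and mm9 the builds in the submitters' processing notes, which give no roles. The authors deposited TPM values, which sum to 1000000 in each library, so the depth is unknown. The authors' deposited table of changed genes holds log2 fold changes, p-values and a mean normalized count signal, and their enrichment tables hold log10 p-values, per the file headers.

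From the TPM table, genes that averaged 1 TPM or more were transformed to log2(TPM + 1) and fitted with limma 3.58.1 in R 4.3.3, with a variance trend, two-sided, with Benjamini-Hochberg adjustment over all 16073 genes. The 2 old and 2 young libraries entered every comparison. The script was tested on simulated data. Ratios within a library were compared with an exact permutation test. The members and gene lists were chosen with earlier results of these data known. All 8 members are named, and from each pathway list up to 3 called genes with the smallest p; any other list gene was picked with its values in view. Promoter sequences are from RefSeq. Alternatives were a pseudocount of 0.1, no filter, a mean of at least 5 TPM, median-ratio scaling, removal of immunoglobulin genes, no variance trend, a replicate block and each library left out. A crossed block was added after seeing the data. The values of a few list genes are not reported here.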

Additional observations from a re-analysis of the deposited data

How the results depend on the processing

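The rise of Tnfrsf17 held in all 12 alternatives and that of Il6 in 6 of 11, with a log2 change of 1.21 and an adjusted p of 0.0749 without a filter and 0.0526 without a variance trend. With a library left out, where a lone sample is assumed to vary like the others, Il6 ranged from 0.99 to 1.43 (adjusted p 0.0320 to 0.0701) and Tnfrsf17 from 2.83 to 2.89. A mean of at least 5 TPM left out Il6 and Tnfsf13. The fall of Cxcr4 was -0.22 without a filter (adjusted p = 0.104), without a variance trend (0.122), with the replicate block (0.133) and with crossed replicate numbers (0.0540), -0.16 with median ratios, -0.032 with immunoglobulin genes removed, and -0.24 to -0.20 with a library left out. Uncalled directions turned: Tnfsf13b, Tnfrsf13b and Tnfrsf13c were at 0.026, 0.023 and 0.051 with median ratios and at 0.15, 0.15 and 0.18 with immunoglobulin genes removed. With a library left out, Tnfsf13 ranged from -0.15 to 0.22, Tnfsf13b from -0.10 to 0.045, Tnfrsf13b from -0.086 to 0.012, Tnfrsf13c from -0.16 to 0.14 and Cxcl12 from -0.11 to 0.31. The 3204 genes called became 130 without a filter, 1853 with median ratios, 1803 with immunoglobulin genes removed, 572 without a variance trend, 1252 with the replicate block, 4649 with crossed numbers, and 353 to 2500 with a library left out (353 and 434 when young replicates 1 and 2 were dropped, 1980 when old replicate 1 was). Same-numbered libraries deviated from their group means with a correlation of -0.146 over 16073 genes. Such a correlation cannot settle whether the numbers pair the samples, and the labels do not say. The replicate block ended 1 call among the 8 genes, that of Cxcr4. Calls in the lists also varied. They ranged from 1 to 2 for ligand processing (2 as reported), 0 to 3 for TRAF and NF-kappaB signalling (1), 0 to 1 for other ligands (1), 0 to 4 for the interleukin-6 family (4), 1 to 6 for the Cxcl12 axis (6) and 0 to 6 for other niche genes (6). The cause of these changes was not tested.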

Other observations

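A few further cytokines and pairs, chosen after their values were seen, are given as values. Il10, a cytokine that acts on B cells and plasma cells, did not reach the minimum and was at 1.58 and 0.892 TPM in old libraries, against 0.399 and 0.411 TPM in young libraries. Lif, a relative of interleukin-6, was likewise untested, at 1.10 and 1.18 TPM in old libraries, against 0.671 and 0.558 TPM in young libraries. Tnfrsf13b over Cd79a was 0.574 and 0.665 in old libraries, against 0.386 and 0.457 in young libraries, so TACI, like BAFF-R, was higher in old relative to this B cell gene.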
